A study of Mus musculus with 57 samples.

Results

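The 100 microarray probes described here had the lowest signal, relative to 3 other sets of unirradiated tumours, in one set of Lewis lung carcinoma tumours from old mice. Lewis lung carcinoma (LLC) is a transplantable mouse lung tumour line, and each array (Illumina Mouse WG-6) held the RNA of a single tumour from a male host. The arrays formed 6 sets. Old mice gave 10 tumours irradiated with 3 proton fractions of 0.5 Gy (old irradiated), 9 unirradiated tumours of the same x3 schedule (old sham x3) and 10 unirradiated tumours of a schedule labelled acute (old sham acute). Adolescent mice, which the sample fields also call young, gave 10 irradiated, 9 sham x3 and 9 sham acute tumours. The labels write 0 Gy for the unirradiated tumours, and "sham" is used for them here. For 9 of the 10 old sham acute tumours, replicates 11 to 19, the description itself names no dose. Neither the strain, the age in weeks nor the interval between irradiation and collection is given in the sources used here.

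The probes were selected on measured values. After quantile normalisation and log2 transformation of the intensities, 20591 of 45281 probes were detected (detection p under 0.05) on at least 10 arrays. For each of them the median in old sham x3 tumours was subtracted from the lowest of the medians in adolescent sham x3, adolescent sham acute and old sham acute tumours, and the 100 probes with the largest value were taken as members. The irradiated arrays took part in the normalisation and in the detection filter but not in the value that ranked the probes. Since the sham arrays were used for that value, every comparison with a sham set below is a description without a test, and only the 2 irradiated sets were tested against each other. Of the 100 members, 77 had 1 gene symbol in the platform annotation, covering 68 genes, and 23 had no single gene symbol and are called unnamed.

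The named members have varied roles, of which some are given here as background. The translation factor Eef2 moves the ribosome along the mRNA, Eif5a helps peptide bonds form at stalled ribosomes, Pabpc1 binds the poly(A) tail, and Alyref hands spliced mRNA to the nuclear export machinery. Histone H2A packages new DNA, Srm makes the polyamine spermidine, from which the hypusine residue of Eif5a is formed, and Myc is a transcription factor that binds the E-box CACGTG and drives growth genes. Actb, Msn and Tuba1a build the cytoskeleton, Fn1 and Col3a1 the extracellular matrix, and Cox5b, Cox6a1 and COX2 are subunits of cytochrome c oxidase, the terminal enzyme of mitochondrial respiration.

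In 4 genes with more than 1 detected probe, Alyref, Cox6a1, Eef2 and H2ac12, all detected probes were members, and their upstream sequences are shown because the whole measured gene, not a single probe, was low in old sham x3 tumours. The sequences are from RefSeq (GRCm38.p6) and give the 250 bases before the start used for each sequence, 5′ to 3′ on the strand of the gene. For Alyref the gene annotation reaches to 120598399, so the last bases of its sequence lie inside the annotated gene. Alyref lies at chr11:120598366-120598615 (minus strand), Cox6a1 at chr5:115348959-115349208 (minus strand), Eef2 at chr10:81176381-81176630 (plus strand) and H2ac12 at chr13:22035644-22035893 (minus strand). Capitals mark the TATA box (TATAAA), the CCAAT box, the GC box (GGGCGG) and the E-box (CACGTG) on either strand.
Alyref: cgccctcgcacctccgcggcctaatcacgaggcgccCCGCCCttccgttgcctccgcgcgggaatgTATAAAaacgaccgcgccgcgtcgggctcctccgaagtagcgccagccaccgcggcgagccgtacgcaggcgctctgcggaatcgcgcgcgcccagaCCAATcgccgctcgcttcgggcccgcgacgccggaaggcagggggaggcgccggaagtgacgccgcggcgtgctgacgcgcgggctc
Cox6a1: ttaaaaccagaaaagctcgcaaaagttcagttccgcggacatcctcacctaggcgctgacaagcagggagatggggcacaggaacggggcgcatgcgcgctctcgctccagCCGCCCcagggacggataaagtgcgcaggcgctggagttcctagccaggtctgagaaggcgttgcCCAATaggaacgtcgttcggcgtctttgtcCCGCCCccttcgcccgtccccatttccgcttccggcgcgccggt
Eef2: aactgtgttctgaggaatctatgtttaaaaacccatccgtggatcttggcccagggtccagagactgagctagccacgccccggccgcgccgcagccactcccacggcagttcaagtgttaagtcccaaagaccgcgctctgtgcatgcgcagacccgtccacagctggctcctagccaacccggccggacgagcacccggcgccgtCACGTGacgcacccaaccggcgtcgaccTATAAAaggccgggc
H2ac12: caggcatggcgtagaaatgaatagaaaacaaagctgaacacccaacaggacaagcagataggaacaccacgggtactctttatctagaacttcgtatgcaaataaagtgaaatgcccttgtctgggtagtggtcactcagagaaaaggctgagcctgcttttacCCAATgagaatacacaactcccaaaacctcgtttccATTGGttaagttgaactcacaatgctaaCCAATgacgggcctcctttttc

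The Eef2 sequence held 1 E-box and 1 TATA box, which begin 43 and 15 bases before the start. The H2ac12 sequence held 3 CCAAT boxes and no GC box, and Cox6a1 held 2 GC boxes and 1 CCAAT box. Entries were found for 53 of the 68 member genes, with 69 upstream sequences. CACGTG was present in 20.3% of these 69 sequences, against 8.15% of the 11211 sequences of genes with a detected probe and 6.02% of all 32851. The genes with CACGTG were Arf5, Cited2, Crls1, Eef2, Eif5a, Get4, Msn, Pcbp1, Snrpa and Ubap2l. GGGCGG was present in 53.6% of the member sequences, against 56.3% for genes with a detected probe. CCAAT was present in 31.9% and 35.1%, and TATAAA in 14.5% and 7.14%, of the same 2 groups. The 14 member sequences with CACGTG came from 10 of the 53 genes, since a gene can have more than 1 sequence. The median GC content was 62.0% in member sequences and 52.4% in all 32851. The motif counts are letter matches and were not tested, nor was the part of GC content in them.

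On the scale of the selection, members lay between 2.15 and 1.12 log2 units below the nearest other unirradiated set. Old sham x3 replicates 6 and 7 stood apart from the other arrays, with mean correlations to them of 0.858 and 0.822, against 0.925 or more for the others, and 85 of the 100 members were also picked without them. These 2 arrays were also high for endothelial, neutrophil and T cell markers, but not for every list of host cell markers. The mean level of the endothelial list (log2 values after the neqc normalisation described below) was 10.49 and 11.08 on them, against 6.62 to 7.16 on the other 7 old sham x3 arrays and 6.20 to 7.43 in old sham acute tumours. The neutrophil list was at 9.55 and 10.45 on them, against 5.90 to 7.53 on the other 7 and 5.76 to 7.49 in old sham acute tumours, and the T cell list at 8.84 and 8.85, against 6.65 to 7.90 and 6.77 to 7.54. The cell cycle list was low on them, at 7.47 and 6.68, against 8.06 to 8.39 on the other 7 and 8.13 to 8.61 in old sham acute tumours. So was the fibroblast and matrix list, at 8.14 and 7.48, against 8.28 to 9.09 and 8.93 to 9.57. The macrophage list ran from 7.41 to 8.20 over all old sham x3 arrays, within the 7.34 to 8.50 of old sham acute tumours. The part of these differences in the selection was not tested beyond leaving the 2 arrays out. The 10 largest values belonged to the unnamed probe ILMN_2705119 (2.15), Msn (2.11), Alyref (2.10 and 1.98 for its 2 probes), ILMN_2551741 (2.08), Srm (2.07), H2ac15 (1.97), Ybx3 (1.86), Mtch1 (1.80) and ILMN_1246590 (1.77). The last members inside the limit were Pde6d and Mgat4b, both at 1.12, and the first probes outside it were Uqcrh and Lmna, also both at 1.12. No gap in the values separated members from non-members.

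The members were reduced in old sham x3 tumours but not lost there. Of the 100, 80 were detected on all 9 old sham x3 arrays and 5 on at most 4, the fewest being the Dda1 probe with 1 array. In old irradiated tumours 94 members were detected on all 10 arrays, and in each of the other 4 sets all 100 members were detected on every array. They were also bright probes. In adolescent irradiated tumours 55 members were among the 10% of detected probes with the highest level, and all 100 were above the median. All levels and differences from here on are log2 values after background correction and quantile normalisation (neqc, offset 16).

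Old irradiated tumours lay between the 2 old sham sets. The mean level over the 100 members was 9.82 ± 0.59 in old irradiated (SD, n = 10), against 8.57 ± 0.72 in old sham x3 (n = 9) and 10.52 ± 0.10 in old sham acute tumours (n = 10). Adolescent tumours averaged 10.75 ± 0.07 when irradiated (n = 10), against 10.58 ± 0.15 in sham x3 (n = 9) and 10.39 ± 0.11 in sham acute tumours (n = 9).

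The 10 old irradiated tumours were not alike. Replicates 5, 6 and 7 had member means of 8.99, 8.96 and 9.04. Replicates 1, 2, 3 and 4 had 10.02, 10.02, 10.03 and 10.13, and replicates 8, 9 and 10 had 10.19, 10.61 and 10.22. Replicates 5, 6 and 7 therefore lay just above old sham x3 replicates 1 to 8, which had 8.40, 8.29, 8.78, 8.90, 8.43, 7.76, 7.77 and 8.63. Old sham x3 replicate 9 stood apart from its own set at 10.18. Old sham acute tumours ran from 10.33 to 10.67, so that old irradiated replicate 9 lay inside their range and the other 9 irradiated tumours below it.

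This pattern was shared by most members. In 87 of the 100, replicates 5, 6 and 7 were the 3 lowest old irradiated tumours. Replicate 5 was below every old sham acute tumour in 97 members, replicate 6 in 97 and replicate 7 in 98, whereas replicate 9 was so in 10 and replicate 2 in 57. Old sham x3 replicate 9 was the highest of its set in 97 members and reached the old sham acute range in 58.

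The position of each member was expressed as a place between the old sham means, 0 at old sham x3 and 1 at old sham acute. The median place of old irradiated tumours was 0.655, and all 100 members were between 0.244 and 0.972, with 85 above 0.5. The rule picked probes that were low in old sham x3 tumours, which by itself favours places above 0. Per member, the old irradiated mean exceeded the old sham x3 mean by a median of 1.21 log2 units, and its difference from the old sham acute mean had a median of -0.60. Without old irradiated replicates 5, 6 and 7 the median place was 0.842, without old sham x3 replicates 6 and 7 it was 0.605, and without old sham x3 replicate 9 it was 0.692. The lowest places were those of the unnamed probes ILMN_2450735 (0.244), ILMN_1255581 (0.409) and ILMN_2632299 (0.412), of Igfbp3 (0.402), a carrier of insulin-like growth factors, and of Cited2 (0.419), a transcriptional co-regulator. The highest were those of ILMN_2654896 (0.972), ILMN_1248039 (0.955), Aup1 (0.955), COX2 (0.923) and the small nucleolar ribonucleoprotein subunit Nop10 (0.862).

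In the comparison of the 2 irradiated sets, which had not ranked the probes, members were lower in old irradiated than in adolescent irradiated tumours. At a Benjamini-Hochberg adjusted p of 0.05 over all 20591 probes (limma), 85 members were lower, 0 higher and 15 not called. Of all probes tested, 22.8% were lower and 18.1% higher. The fitted difference was negative for all 100 members, with a median of -0.90 log2 units (1.87-fold lower), against -0.03 for all probes tested. In 21 members every old irradiated tumour was below every adolescent irradiated tumour, which was the case for 2.68% of all probes. The 2005 other probes among the 10% with the highest level had a median difference of -0.02, with 21.0% lower and 20.7% higher.

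Features of the arrays moved with these calls, the detected share and 3 of the old irradiated tumours. The shares of probes detected did not overlap, at 32.2% to 37.8% in old irradiated and 40.1% to 42.1% in adolescent irradiated tumours, so that age and detected share cannot be told apart. With the detected share as a covariate, 1 member (ILMN_1246590) was lower and 0 higher, the median member difference was 0.06, and 261 probes in all were called in place of 8425. Without old irradiated replicates 5, 6 and 7, 70 members were lower and 1 (Aup1, 0.35, adjusted p = 0.0293) higher. The median member difference was then -0.57, and of all probes 18.8% were lower and 14.6% higher. Among the sham sets the detected share was also lowest in old sham x3 tumours, with a mean of 35.9% (31.1% to 40.4%). It averaged 39.1% in old sham acute (35.4% to 40.3%), 40.6% in adolescent sham x3 and 40.2% in adolescent sham acute tumours. Within the sets the member mean and the detected share did not always move together. Old sham x3 replicates 6 and 7, with the lowest member means, had shares of 38.6% and 40.4%, and replicate 9, with the highest, had 39.2%. Old irradiated replicates 5, 6 and 7 had shares of 34.8%, 33.5% and 32.2%, and replicate 9, with the highest member mean, had 34.4%. The part of the detected share in the selection was not tested.

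Among the members were 5 probes of 2 translation factor genes. Of 21 detected probes of the translation factor list, these 5 were members, 3 for Eef2 and 2 for Eif5a; over the whole list 9 were lower in old irradiated than in adolescent irradiated tumours and 3 higher, with a median of -0.13. Eef2 (ILMN_1239110) ran from 9.91 to 12.02 in old irradiated (median 11.07), against 11.94 to 12.37 in adolescent irradiated tumours (median 12.21), and the sets overlapped. In old sham x3 tumours it ran from 7.89 to 11.65 (median 9.99) and in old sham acute tumours from 11.03 to 11.97 (median 11.54). Its difference between irradiated sets was -1.25 ± 0.20 (SE, adjusted p = 5.62e-05), and the other 2 Eef2 probes gave -1.24 each (adjusted p = 0.000212 and 0.000171). The 3 probes thus had nearly the same difference.

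Eif5a, which carries hypusine, gave -0.58 ± 0.19 (ILMN_2678828, adjusted p = 0.0171) and -0.47 ± 0.21 (ILMN_1251631, adjusted p = 0.0793), of which the second did not pass the threshold. Pabpc1 (ILMN_1259769) ran from 4.85 to 9.32 in old irradiated (median 7.76), against 8.78 to 9.66 in adolescent irradiated tumours (median 9.27), a difference of -1.92 ± 0.39 (adjusted p = 0.000551). In old sham x3 tumours it ran from 4.73 to 8.13 (median 5.45), wholly below the 8.63 to 9.27 of old sham acute tumours. Its second member probe (ILMN_2705407) gave -1.46 ± 0.37 (adjusted p = 0.00348). Ybx3, a cold-shock-domain RNA-binding protein, ran from 4.99 to 8.98 in old irradiated (median 8.12), against 8.83 to 10.20 in adolescent irradiated tumours (median 9.35), a difference of -1.87 ± 0.39 (adjusted p = 0.000619). Its old sham x3 tumours ran from 4.48 to 8.35 (median 5.35), again wholly below the 9.07 to 9.85 of old sham acute tumours. In Pabpc1 and Ybx3 the old irradiated tumours were more widely spread than the adolescent ones.

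Both Alyref probes passed the test. ILMN_2617245 ran from 10.24 to 11.60 in old irradiated (median 11.40), against 11.17 to 12.13 in adolescent irradiated tumours (median 11.72), with a difference of -0.54 ± 0.17 (adjusted p = 0.0154). It ran from 8.64 to 11.31 in old sham x3 (median 9.17) and from 11.24 to 11.64 in old sham acute tumours (median 11.50), with an overlap at the ends. The second probe (ILMN_2747744) gave -0.61 ± 0.16 (adjusted p = 0.0048), and the 2 places were 0.841 and 0.788. Further RNA-binding members, picked for mention after their values were seen, were the stress granule protein G3bp1 (-1.50), the U1 snRNP protein Snrpa (-1.22), and Pcbp1 (-0.79), Khsrp (-0.73) and Hnrnpl (-0.57), all lower by the member probe. The other, brighter Snrpa probe gave -0.02 (adjusted p = 0.86), and the other, brighter G3bp1 probe gave -0.43 (adjusted p = 0.000511). The other, dimmer Khsrp probe gave -0.96 (adjusted p = 8.81e-07). The list for splicing and RNA binding, which does not hold these further RNA-binding genes, had 0 members among its 28 detected probes, of which 16 were lower and 2 higher. Of 79 ribosomal protein probes 0 were members, with 3 lower and 14 higher (median 0.11). As 100 of all 20591 detected probes were members, lists of these sizes would often hold none.

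Srm, spermidine synthase, ran from 8.42 to 10.99 in old irradiated (median 10.17), against 10.98 to 11.60 in adolescent irradiated tumours (median 11.34); the ranges touched at their ends. It ran from 5.36 to 10.01 in old sham x3 (median 8.43) and from 10.58 to 11.17 in old sham acute tumours (median 10.82). The difference between irradiated sets was -1.47 ± 0.26 (adjusted p = 0.00012), or 2.78-fold lower.

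Among transcription regulators, Myc (named after its values were seen) ran from 7.59 to 10.78 in old irradiated (median 8.86), against 9.24 to 10.68 in adolescent irradiated tumours (median 10.15). The difference was -1.10 ± 0.31 (adjusted p = 0.00661), and old irradiated tumours covered the whole adolescent range. In old sham x3 tumours Myc ran from 4.84 to 8.71, wholly below the 9.15 to 10.13 of old sham acute tumours. Cited2 was lower by both member probes, at -1.47 ± 0.25 and -1.43 ± 0.23 (adjusted p = 8.15e-05 and 5.55e-05). Atf4, the transcription factor of the integrated stress response, was lower by 0.76 on the log2 scale (difference -0.76 ± 0.17, adjusted p = 0.00107); it was the only member among 16 probes of the unfolded protein response list, of which 5 were lower and 1 higher.

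Members for core histones were all of the H2A family. H2ac15 ran from 12.48 to 13.58 in old irradiated, against 13.59 to 14.37 in adolescent irradiated tumours, with no overlap and a difference of -0.90 ± 0.15 (adjusted p = 5.68e-05). In old sham x3 tumours it ran from 10.39 to 12.79, below all old sham acute tumours (13.24 to 13.95). H2ac12 gave -0.86 ± 0.14 (ILMN_2730329) and -0.83 ± 0.16 (ILMN_1246108), and H2ac7 gave -0.63 ± 0.14, with adjusted p-values of 4.95e-05, 0.000401 and 0.00109. A brighter H2ac7 probe that was not a member (ILMN_1226839) gave only -0.20 (adjusted p = 0.0464). Of 75 detected histone probes, 4 were members, 22 were lower and 4 higher, with a median of -0.26. The H2A genes are nearly identical in sequence, and these probes may not tell them apart.

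Chaperone and cytoskeleton members were lower as well. Hspa8, the constitutive Hsc70 chaperone, was the only member among 21 heat shock probes, of which 11 were lower and 0 higher (median -0.46); its member probe ran from 11.20 to 13.43 in old irradiated, against 13.21 to 13.74 in adolescent irradiated tumours, a difference of -0.97 ± 0.23 (adjusted p = 0.00207). Actb (β-actin) gave -0.95 ± 0.31 (adjusted p = 0.0198) and Tuba1a (α-tubulin) -0.72 ± 0.16 (adjusted p = 0.00108); in the tubulin and actin list 12 of 26 probes were lower and 3 higher. Msn (moesin), which links actin to the membrane, gave -1.0 ± 0.34 (adjusted p = 0.0209). It ran from 7.75 to 11.34 in old irradiated, against 10.40 to 11.39 in adolescent irradiated tumours. In old sham x3 tumours Msn ran from 7.04 to 10.85 (median 7.70), against 10.10 to 11.31 in old sham acute tumours (median 10.81). Mtch1, a mitochondrial carrier homolog, ran from 7.06 to 9.18 in old irradiated, against 9.80 to 10.54 in adolescent irradiated tumours, with no overlap (difference -1.80 ± 0.24, adjusted p = 7.26e-06). Mtch1 ran from 5.83 to 8.88 in old sham x3 tumours, just below the 8.97 to 9.85 of old sham acute tumours.

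Matrix members also passed the test in part. Col3a1, type III collagen, gave -1.02 ± 0.27 (adjusted p = 0.00488) by the member probe and -0.24 (adjusted p = 0.335) by its other detected probe. One fibronectin probe (Fn1, ILMN_2646618) gave -0.99 ± 0.25 (adjusted p = 0.00328), and the brighter one (ILMN_2595714) gave -0.39 ± 0.18 (adjusted p = 0.0974), not past the threshold. Igfbp3 gave -1.71 ± 0.35 (adjusted p = 0.000625). Of 26 detected fibroblast and matrix probes, 9 were lower and 3 higher. In bulk tumours fewer cells of a type and less RNA per cell cannot be told apart.

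Respiratory chain members passed the test in part. Of 128 detected probes of that list 6 were members, and over the list 19 were lower and 27 higher, with a median of 0.01. Cox6a1 was lower by both probes, at -0.56 ± 0.13 and -0.53 ± 0.14 (adjusted p = 0.00198 and 0.00373), and Cox5b gave -0.53 ± 0.15 (adjusted p = 0.00781). Ndufc2 gave -0.58 ± 0.30, Atp5j -0.27 ± 0.13 and Cox17 -0.11 ± 0.19, none past the threshold (adjusted p = 0.119, 0.108 and 0.663). COX2, which is encoded in the mitochondrial genome, gave -0.35 ± 0.24 (adjusted p = 0.256). In all, 7 of 29 gene lists held a member. None did in the lists for the proteasome (10 of 68 lower, 23 higher), the mitochondrial ribosome (13 of 114 lower, 29 higher), the cell cycle (12 of 35 lower, 4 higher), or glycolysis and hypoxia (4 of 26 lower, 1 higher). Of all 20591 detected probes 100 were members, so lists of these sizes would often hold none.

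The remaining named members had other roles and were picked for mention after their values were seen. Arf5, a small GTPase of Golgi transport, had the largest difference among members with 1 gene symbol, at -2.01 ± 0.30 (adjusted p = 2.07e-05), or 4.03-fold lower in old irradiated tumours. Tram1, which sits at the protein channel of the endoplasmic reticulum, gave -1.18, the G protein subunit Gnas -1.21, the integrin subunit Itgb1 -0.91, the mitochondrial phosphate carrier Slc25a3 -0.91, the MAP kinase phosphatase Dusp6 -0.90 and the autophagy receptor Sqstm1 -0.67, all lower by the member probe. Other probes of these genes did not all follow. The brightest Dusp6 probe was higher, at 0.35 (adjusted p = 0.00279), and another was lower, at -0.64 (adjusted p = 0.000119). The other probes of Slc25a3 and Itgb1 gave -0.08 and -0.06, neither past the threshold. Of the other Tram1 and Gnas probes, some were lower and the rest not called. The 3 smallest differences were those of the matrix protein Dpt, at -0.10 ± 0.28 (adjusted p = 0.796), of Cox17 and of the MHC class I gene H2-D1, at -0.14 ± 0.15 (adjusted p = 0.476), none past the threshold.

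The 5 members with the lowest adjusted p carried no single gene symbol. ILMN_1246590 ran from 7.17 to 9.03 in old irradiated, against 9.91 to 10.74 in adolescent irradiated tumours, a difference of -2.48 ± 0.18 (adjusted p = 3.39e-09) and the largest of all members. ILMN_2960822, ILMN_2540489, ILMN_2450735 and ILMN_2630975 gave -1.20, -0.90, -1.33 and -1.56 (adjusted p = 5.28e-07, 9.76e-07, 2.19e-06 and 2.61e-06). All 5 separated the 2 irradiated sets without overlap.

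Probes of the same gene often differed from the member. Of the 68 genes, 54 had more than 1 detected probe, and in 50 of these at least 1 probe was not a member. These 94 other probes had a median selection value of 0.11, against -0.06 for all detected probes; 26 were above 0.5 and 39 below 0. In the comparison of irradiated tumours 40 of them were lower and 9 higher, with a median of -0.22. Of 44 genes with other probes and a member called lower, 29 had another probe that was also lower, 10 had no other probe called, and 7 had one that was higher; a gene with probes of both kinds is in both counts.

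The differences within a gene could be large. The Actb member was the only one of 5 Actb probes with a positive selection value, and the other 4 gave differences of 0.05, 0.28, 0.20 and -0.00075 between the irradiated sets, none past the threshold. The Msn member gave -1.0, and 2 other Msn probes gave -0.24 (adjusted p = 0.234) and 0.60 (adjusted p = 0.000928). The Mtch1 member gave -1.80, and the brighter second probe gave 0.26 (adjusted p = 0.045). For Srm both other probes were lower too, at -0.55 and -0.49. For Hspa8 one other probe gave -0.92 (adjusted p = 2.84e-05) and the brightest gave -0.05 (adjusted p = 0.625). The other Tuba1a probe gave -0.02 (adjusted p = 0.938). For Ybx3, ILMN_1234336 gave 0.03 (adjusted p = 0.93) and the brighter ILMN_2705078 gave -0.82 (adjusted p = 9.42e-05). The position of the probes in the transcripts was not analysed here.

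Members varied together among old irradiated tumours, whose levels had not ranked the probes. Across these 10 arrays the correlation of a member with the mean of the other 99 had a median of 0.92, and it was above 0.5 in 99 members; the other detected probes had a median of -0.02 with the member mean, with 19.05% above 0.5. The points share the arrays, and replicates 5, 6 and 7 set most of the range. Across the 10 adolescent irradiated arrays the median was 0.29, with 25 members above 0.5 against 6.10% of the other probes. The median SD of a member was 0.63 in old irradiated and 0.24 in adolescent irradiated tumours, against 0.35 and 0.24 for all detected probes.

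In adolescent mice, where the sham sets had entered the selection, the mean level of irradiated tumours was above sham x3 in 85 members and above sham acute in 91. The median differences were 0.19 and 0.39, against 1.21 between old irradiated and old sham x3 tumours. The rule picked probes that were low in old sham x3 and higher in the adolescent sham sets. These sizes therefore cannot be compared as effects of irradiation.

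Markers of host cells were called to different extents between the irradiated sets, where 22.8% of all probes were lower and 18.1% higher. None of the 15 detected skeletal muscle probes and 1 of 16 macrophage probes was called. Of 12 endothelial probes 5 were lower and 0 higher, and the list mean ran from 6.35 to 7.12 in old irradiated, against 6.57 to 7.81 in adolescent irradiated tumours. Of the 18 endothelial probes in all, 5 were detected on no old irradiated array and 6 on no adolescent irradiated array. The fibroblast and matrix list, which holds 3 members and had 9 of 26 probes lower and 3 higher, ran from 8.54 to 9.30 in old irradiated, against 8.87 to 9.60 in adolescent irradiated tumours. In old sham x3 tumours it ran from 7.48 to 9.09, against 8.93 to 9.57 in old sham acute tumours. The part of these lists in the member differences was not tested. Of 13 probes for epithelial and lung markers 3 were detected, of which 2 were lower, so the labelled tumour type could not be checked with them.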

How the data were processed

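RNA of 57 LLC tumours was hybridised to 1-colour bead arrays, 1 tumour per array. The deposited table gives, for 45281 probes, an averaged bead intensity with its detection p-value; per the labels the authors used GenomeStudio, no version being given, and the intensity values are neither background-corrected nor normalised, as tested on the values. The series matrix intensity values deposited by the authors are a linear function of these and served as an alternative. Groups came from titles and descriptions; nothing links tumours to a chip or a processing day.

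Background was corrected and arrays normalised with neqc of limma 3.58.1 in R 4.3.3 (offset 16). The background intensity it estimated was 167 to 195 on old sham acute replicates 11 to 19 and 115 on replicate 10. In the other sets it was at most 145. The part of this difference in the selection and in the place was not tested. Probes detected on at least 10 arrays were tested with lmFit and eBayes over the 10 old irradiated and 10 adolescent irradiated arrays. All adjusted p-values are limma's, with Benjamini-Hochberg adjustment over 20591 probes. The labels do not say that the tumours came from separate mice, so p-values measure the spread between these samples. The number of arrays limits the precision. The code was tested on simulated data.

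The annotation gave 1 symbol for 34885 probes, several for 18 and none for 10378. The text names the 10 members with the largest selection value, the 5 with the lowest adjusted p in each direction (none was higher), the 5 at each end of the place, the 2 probes on either side of the limit, members of the 29 gene lists and genes with more than 1 member probe. The members and lists were chosen with earlier results of these data known. No arrays held the same values (highest correlation 0.991).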

Additional observations from a re-analysis of the deposited data

Results flagged for a closer look

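Each set of 9 or 10 tumours was examined for a single tumour lying far from its nearest neighbour, relative to the range of the set, in 104 cases (the member mean in 6 sets and 49 named probes in the 2 irradiated sets). Chance flags about 1 set in 20, and 4 were flagged. The member mean of old sham x3 replicate 9 was 10.18, above the 7.76 to 8.90 of the other 8 tumours. The Msn member probe was 11.39 in adolescent irradiated replicate 1, the brighter Fn1 member probe (ILMN_2595714) was 14.42 in adolescent irradiated replicate 5, and the unnamed probe ILMN_2632299 was 8.30 in adolescent irradiated replicate 7. No set of old irradiated tumours was flagged, where replicates 5, 6 and 7 lay low together.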

How the results depend on the processing

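The count of 85 members lower was 84 or 85 under other background corrections, median scaling and the 3 other detection filters, 69 with the series matrix values, 86 in a fit of all 57 arrays, 83 with array weights, 83 with the replicate block, 60 for a change beyond a fold of 1.2 and 81 to 88 with 1 tumour left out. The median member difference was -0.96 to -0.82, and the median place 0.601 to 0.712, with 1 tumour left out. The deviations of same-numbered irradiated tumours of the 2 ages correlated at -0.14 to 0.45, with 4 of 10 pairs above 0.1. The labels do not pair tumours by number, so the replicate block has no basis in the design. With the detected share as a covariate 1 member was called (16 at an unadjusted p under 0.05) and the median member difference turned to 0.057; the 2 sets' shares did not overlap, and the cause was not tested. Other selections gave 43 calls for the top 50 probes and 167 for the top 200. Members picked on the neqc scale shared 42 probes with the 100 described, and gave 89 calls with a median place of 0.554; picked without old sham x3 replicates 6 and 7, 85 were shared.

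Over all probes, 4700 were lower and 3725 higher (55.8% of calls lower). Median scaling moved the median of all probes by 0.26, with 24.4% of calls lower, and members then lay 1.04 below that median, against 0.87 in the main setting. With the series matrix values 41.5% of calls were lower. In all 8425 probes were called, 14580 without a detection filter and 2663 beyond a fold of 1.2.

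Over the 100 members, 51 differences turned positive with the detected share as a covariate, 5 with the series matrix values and 7 without old irradiated replicates 5, 6 and 7; the cause was not tested. Of the 49 probes named by rule, those with the detected share as a covariate were Msn (ILMN_2694960) 0.95, Alyref (ILMN_2617245) 0.41, ILMN_2551741 0.46, Alyref (ILMN_2747744) 0.35, Ybx3 (ILMN_2629657) 0.36, Nop10 (ILMN_2669023) 0.86, COX2 (ILMN_2426691) 0.74, ILMN_1248039 0.46, Aup1 (ILMN_1252199) 1.38, ILMN_2654896 0.73, Fn1 (ILMN_2595714) 0.44, Col3a1 (ILMN_2683958) 0.33, Hspa8 (ILMN_2918479) 0.074, Eif5a (ILMN_2678828) 0.24, Eif5a (ILMN_1251631) 0.43, Atp5j (ILMN_2611261) 0.12, Cox6a1 (ILMN_2638875) 0.26, Ndufc2 (ILMN_2976591) 0.87, Cox5b (ILMN_2772319) 0.24, Cox17 (ILMN_3160517) 0.90, Cox6a1 (ILMN_2605400) 0.28, H2ac12 (ILMN_1246108) 0.073, H2ac7 (ILMN_2795040) 0.14, Actb (ILMN_2617433) 0.59 and Tuba1a (ILMN_2916705) 0.079. With the series matrix values they were ILMN_1248039 0.031, ILMN_2654896 0.12, Fn1 (ILMN_2595714) 0.055 and Cox17 (ILMN_3160517) 0.14. Without old irradiated replicates 5, 6 and 7, chosen after seeing the data, they were Nop10 (ILMN_2669023) 0.059, Aup1 (ILMN_1252199) 0.35, ILMN_2654896 0.067, Ndufc2 (ILMN_2976591) 0.011 and Cox17 (ILMN_3160517) 0.25. Cox17 was also positive with median scaling (0.00696), array weights (0.045) and without old irradiated replicate 6 (0.00911); with 1 tumour left out it ran from -0.18 to 0.0091.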
